A study of Mus musculus with 96 samples.

Results

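The regions described here are 7384 H3K4me3 peaks of Rybp+/+ mouse embryonic stem cells (ESCs), which make up 18.9% of the 39050 H3K4me3 peaks called in those cells. They were chosen by overlap: each shares at least 1 bp with an H3K27ac peak of the same Rybp+/+ cells and at least 1 bp with a RING1B peak of shEV cells, that is, ESCs carrying the empty shRNA vector. They are called active RING1B peaks below. Presence in those 3 lists, and the enrichment in them, is what selected the peaks and is given only as a description. The remaining H3K4me3 peaks served for comparison. Of these, 6762 (17.3%) had RING1B without H3K27ac and 13152 (33.7%) had H3K27ac without RING1B. The other 11752 (30.1%) had neither.

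The study asked how RYBP, a subunit of Polycomb repressive complex 1 (PRC1), takes part in transcriptional activity in ESCs. H3K4me3, H3K27ac and WDR5 were profiled by ChIP-seq in the R7.15 line, as Rybp+/+ cells and as Rybp-/- cells treated with 5 µM 4-OHT for 4 days. Per the paper, RYBP-depleted cells were made from Rybp-floxed ESCs by this 4-OHT treatment. Each of these lists came from 2 replicates merged by the authors. STAT3 was profiled in the same 2 genotypes with 1 library each. RING1B was profiled in R1 ESCs carrying shEV or shStat3, with 1 library each, and in R1 cells with a DOX-induced Rybp_Stat3 integration (Tet.Rybp.Stat3), without DOX (DOX-) and with DOX (DOX+), from 2 merged replicates each, where STAT3 was profiled as well. RNA was sequenced in 7 comparisons with 2 libraries per group. These were Rybp-/- (with 4-OHT) against Rybp+/+ in R7.15, shRybp and shWdr5 against a shared shEV control in R1, and DOX-treated against NTC cells of the rTRS line, which carries the DOX-induced Rybp_Stat3 integration. The other comparisons were DOX against vehicle in the J1-derived Tet.RYBP line, TF-AA mutation against wild-type R1 ESCs (the sources used here do not spell out TF-AA), and RYBP phase disruption against WT.RYBP. The last pair were R7.15 cells with RYBPfl/fl and Rosa26::CreERT2, all given 4-OHT, that expressed either wild-type RYBP or RYBP lacking 21 amino acids. The 4-OHT given only to Rybp-/- cells cannot be told apart from loss of RYBP. The overlaps reported here join peak lists from separate cell populations and, between R7.15 and R1, separate lines, so they do not show that the marks sat on the same DNA molecule.

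H3K4me3 marks the start sites of transcribed and poised genes and is deposited by COMPASS-type methyltransferase complexes, of which WDR5 is a core subunit. H3K27ac is found at active promoters and enhancers. RING1B is the catalytic E3 ligase of PRC1, which ubiquitinates histone H2A and is known above all for holding developmental genes silent at CpG-rich promoters of ESCs. The variant PRC1 complexes, which contain RYBP or its paralogue YAF2 instead of a CBX protein, also occupy CpG islands of transcribed genes. STAT3 is the transcription factor through which LIF sustains self-renewal of mouse ESCs.

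Stretches of DNA upstream of 6 start sites illustrate the 3 classes. The sequences below are shown because they are the 200 bases upstream of the start of genes whose peak was among the strongest of its class, with CpG dinucleotides in capitals, read 5′ to 3′ on the strand of the gene from the NCBIM37 (mm9) assembly. Those of Cpeb2, an mRNA-binding protein, at chr5:43624502-43624701 (plus strand) and Gnas, the alpha subunit of the stimulatory G protein, at chr2:174152871-174153070 (plus strand) lie in active RING1B peaks. They hold 23 and 15 CpGs, in that order.
Cpeb2: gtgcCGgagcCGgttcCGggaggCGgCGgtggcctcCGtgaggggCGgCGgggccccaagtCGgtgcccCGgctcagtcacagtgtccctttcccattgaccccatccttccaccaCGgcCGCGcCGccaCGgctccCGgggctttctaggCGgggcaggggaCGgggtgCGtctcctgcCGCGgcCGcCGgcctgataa
Gnas: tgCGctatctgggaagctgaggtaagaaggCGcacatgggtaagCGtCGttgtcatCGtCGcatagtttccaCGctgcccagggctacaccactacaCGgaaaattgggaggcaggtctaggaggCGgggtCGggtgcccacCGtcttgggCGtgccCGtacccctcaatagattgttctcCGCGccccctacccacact

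For comparison, the upstream sequences of Plxnc1, a plexin receptor, at chr10:94407213-94407412 (minus strand) and Ikzf1, which encodes the lymphoid factor Ikaros, at chr11:11584806-11585005 (plus strand) lie in H3K4me3 peaks with RING1B and without H3K27ac. Those of Eif4g2, a translation initiation factor, at chr7:118226545-118226744 (minus strand) and Ppp1cb, a catalytic subunit of protein phosphatase 1, at chr5:32761147-32761346 (plus strand) lie in H3K4me3 peaks with H3K27ac and without RING1B. They hold 37, 4, 21 and 24 CpGs in that order. All 6 stretches were chosen outside annotated exons.
Plxnc1: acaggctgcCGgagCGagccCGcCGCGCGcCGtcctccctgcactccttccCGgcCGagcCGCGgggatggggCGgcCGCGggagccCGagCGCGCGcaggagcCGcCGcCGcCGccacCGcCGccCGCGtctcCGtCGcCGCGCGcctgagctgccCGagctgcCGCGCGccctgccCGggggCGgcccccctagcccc
Ikzf1: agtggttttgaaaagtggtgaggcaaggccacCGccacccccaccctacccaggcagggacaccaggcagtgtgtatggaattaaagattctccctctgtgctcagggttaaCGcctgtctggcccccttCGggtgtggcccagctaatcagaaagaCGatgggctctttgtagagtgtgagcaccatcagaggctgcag
Eif4g2: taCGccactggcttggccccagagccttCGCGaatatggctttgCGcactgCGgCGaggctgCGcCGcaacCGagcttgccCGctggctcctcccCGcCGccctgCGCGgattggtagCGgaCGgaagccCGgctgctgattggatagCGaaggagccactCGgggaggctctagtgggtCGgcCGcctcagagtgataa
Ppp1cb: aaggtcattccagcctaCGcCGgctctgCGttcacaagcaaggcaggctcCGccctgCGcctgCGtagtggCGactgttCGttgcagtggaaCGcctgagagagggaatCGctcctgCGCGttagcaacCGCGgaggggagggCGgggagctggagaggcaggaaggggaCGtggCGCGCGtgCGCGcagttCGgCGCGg

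Single stretches vary, and over the whole classes base composition differed. In 300-base windows at the H3K4me3 summit, active RING1B peaks held a median of 29 CpGs at 69.3% G+C, and the ratio of observed to expected CpG was 0.826. Peaks with RING1B alone held 20 CpGs at 63.7% G+C with a ratio of 0.689. Peaks with H3K27ac alone held 8 CpGs at 54.7% G+C with a ratio of 0.385. Among 8 short motifs searched on both strands, the E2F motif TTCCCGCC was in 4.25% of active RING1B windows, against 2.96% with RING1B alone, 1.51% with H3K27ac alone and 2.19% of all H3K4me3 windows. The NFY motif CCAAT went the other way, with 13.1% of active RING1B windows, 18.7% with RING1B alone, 25.2% with H3K27ac alone and 22.4% of all windows. The YY1 motif AAGATGGC was in 1.95%, 1.17% and 3.32% of the 3 classes, and 4.43% of all windows. The STAT motif TTCCNGGAA was in 0.799% of active RING1B windows, near its 0.871% in all windows, and the E-box CACGTG, the site of MAX, was in 5.90% against 5.42%. The classes were closer among windows of like base composition for CCAAT and TTCCCGCC. Within 10 groups of windows of like CpG number, the CCAAT share of members differed by -1.58 points from H3K27ac alone (members higher in 5 of 10) and by -1.92 from RING1B alone (4 of 10). For TTCCCGCC the differences were 0.60 (7 of 10) and 0.86 points (6 of 10), and for AAGATGGC -1.99 (1 of 10) and 0.83 points (7 of 10).

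Active RING1B peaks were mainly promoters. A protein-coding start site lay inside 6157 of them (83.4%), against 48.3% of peaks with RING1B alone, 30.0% with H3K27ac alone and 36.7% of all H3K4me3 peaks. Start sites on both strands lay inside 16.8%, against 5.12% and 5.06% of the other 2 classes. The peaks were also wide, 2703.5 bp at the median where the other 2 classes had 1511.5 bp and 999 bp, and a wider peak is more likely to contain a start site or to touch any other list. The median fold enrichment over input, as the authors' peak caller gave it, was 37.7 for H3K4me3, 11.2 for H3K27ac and 4.28 for RING1B. In peaks with RING1B alone the H3K4me3 value was 14.4 and the RING1B value 9.36, so the RING1B peaks that lacked H3K27ac were the stronger ones. Super-enhancers were approximated by stitching neighbouring H3K27ac peaks and ranking them by fold enrichment times length. ROSE, the usual tool, ranks read signal instead, so the set can differ from one made from reads. H3K27ac peaks at start sites were not left out before stitching, so a promoter within a stitched region counts as inside. On this approximation 1609 active RING1B peaks (21.8%) lay in 834 of 1119 super-enhancers. The paper reports minimal RING1B at RYBP sites within its own super-enhancers, which is a different measure on a different set. The share was 0.769% with RING1B alone and 40.4% with H3K27ac alone, and since H3K27ac was used for the choice these values are descriptive.

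At the edge of the rule, 26 members overlapped one of the lists by less than 100 bp, the smallest overlap being 13 bp, and 16 H3K4me3 peaks with H3K27ac lay within 100 bp of a RING1B peak without touching it, the nearest 3 bp away. Under the members lay 7572 of the 14408 RING1B peaks of shEV cells and 9156 of the 57642 H3K27ac peaks.

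A start site of 7641 genes lay in an active RING1B peak, of which 6819 were protein-coding, beside 2985 protein-coding genes at peaks with RING1B alone, 3719 with H3K27ac alone, 587 with neither and 8270 at no H3K4me3 peak. Genes that encode regulators of these marks can be read against those numbers. From gene lists drawn up with earlier results of these data known, 18 of 27 PRC1 genes were there, including Rnf2, which encodes RING1B, and Rybp, Yaf2, Kdm2b, Bcor, Mga, Pcgf6 and Usp7 of the variant complexes. So were 8 of 11 PRC2 genes, 11 of 18 COMPASS genes, 13 of 18 genes of LIF and STAT3 signalling, 17 of 30 pluripotency genes and 25 of 31 feedback regulators and targets of signalling. The core pluripotency genes were divided, with Sox2, Esrrb, Klf2 and Sall4 at active RING1B peaks and Pou5f1, Nanog, Klf4 and Zfp42 at peaks with H3K27ac alone. Of 37 developmental transcription factors and ligands, 7 were at active RING1B peaks and 29 at peaks with RING1B alone. Of 79 cytosolic ribosomal protein genes, 22 were at active RING1B peaks and 48 at peaks with H3K27ac alone.

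Members strong in all 3 lists included the promoter of Tcfap2c, an AP-2 transcription factor of trophoblast and germ cells (chr2:172370161-172379767), with fold enrichments of 50.4 for H3K4me3, 16.4 for H3K27ac and 38.7 for RING1B in shEV cells. The promoter of Chd7, a chromatin remodeller (chr4:8616429-8620423) had 58.7, 24.7 and 24.3. That of Cpeb2 (chr5:43623258-43627776) had 50.2, 15.5 and 30.8. The Gnas peak (chr2:174151802-174157253) lies in an imprinted locus with several start sites and had 50.5, 14.8 and 37.0. The other members chosen this way held start sites of Baz1a, a chromatin remodelling subunit (chr12:56084928-56088180), the kinase gene Camk2d (chr3:126298945-126302071), Pank4 (chr4:154337629-154340578) and Smad6, an inhibitor of BMP signalling (chr9:63864158-63871366), with RING1B values between 21.8 and 40.1. All 8 also carried a WDR5 peak, with fold enrichments from 4.13 at Gnas to 8.81 at Cpeb2.

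The highest RING1B enrichment lay at members with little H3K27ac. The peak at Itpripl2 (chr7:125632737-125636023) had a RING1B value of 76.0 and an H3K27ac value of 2.98. That at Egr3, an immediate-early transcription factor (chr14:70473987-70480853), had 70.2 and 3.40. Those at Efna5, an ephrin ligand (chr17:63228619-63233788), and Fzd1, a Wnt receptor (chr5:4755410-4759112), had 66.1 and 64.0 for RING1B beside 5.04 and 2.36 for H3K27ac. Across 5 groups of members of equal size, ordered by RING1B from 2.28–3.38 to 6.76–76.0, median H3K27ac enrichment went down from 16.3 to 13.9, 12.1, 10.5 and 5.72. The share in super-enhancers went down with it, from 29.1% to 26.5%, 22.9%, 18.0% and 12.4%. Both measures belong to the choice of members and are described only.

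WDR5 was not used to choose the peaks and was found at most of them. In Rybp+/+ cells 5837 of 7384 active RING1B peaks (79.0%, 95% Wilson interval 78.1–80.0%) overlapped a WDR5 peak. The share was 22.1% with RING1B alone, 23.7% with H3K27ac alone and 27.2% of all H3K4me3 peaks. The difference was 57.0 percentage points from RING1B alone (95% Newcombe interval 55.6–58.3) and 55.3 points from H3K27ac alone (54.1–56.5). These intervals cover counting error only, since each list is 1 merged set and has no replicate. The gap was smaller among peaks of like width. Within 10 groups of H3K4me3 peaks of like width, the difference averaged 33.8 points from RING1B alone, with active RING1B peaks higher in 10 of 10 groups, and 18.9 points from H3K27ac alone. With only peaks at −log10 q of 5 or more, 74.4% of members and 38.8% of peaks with H3K27ac alone carried WDR5, a difference of 35.5 points, while that from RING1B alone was 54.1 points. Within 10 groups of like RING1B enrichment in shEV cells the share was 65.4 points above that with RING1B alone, again in 10 of 10. That enrichment is a value of the rule, so this is only a description. Among the 5 groups of members from lowest to highest RING1B the WDR5 share was 80.9%, 77.2%, 75.9%, 80.6% and 80.6%.

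**Figure D1:**
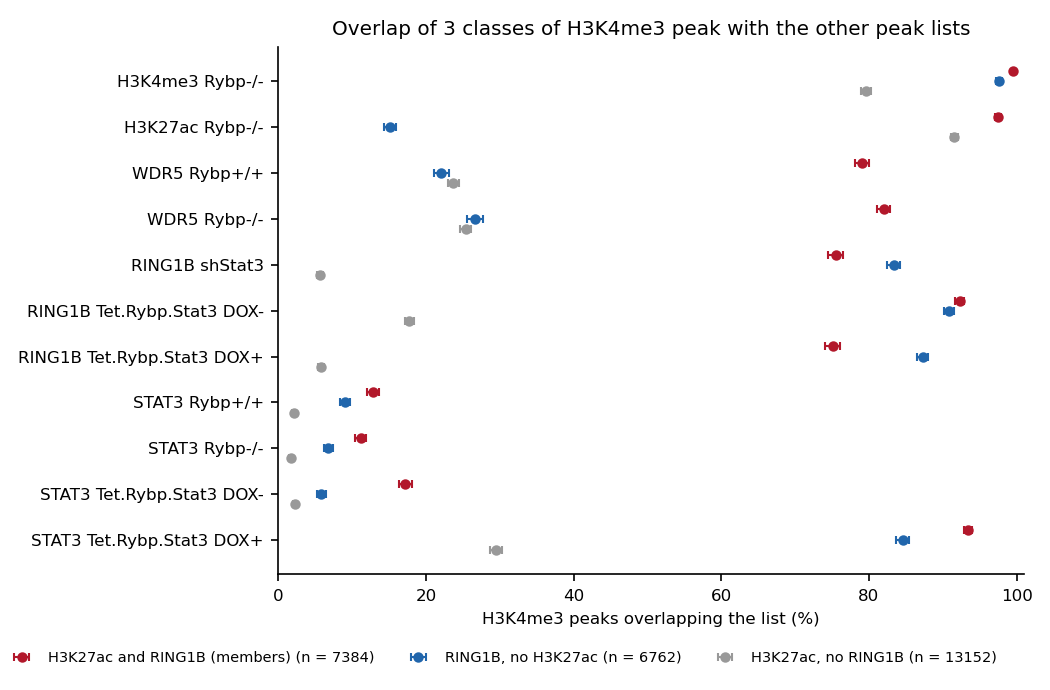
Share of H3K4me3 peaks (%, x axis) that overlap each of the other peak lists (y axis), for active RING1B peaks, peaks with RING1B alone and peaks with H3K27ac alone; error bars are 95% Wilson intervals, which cover counting error only. WDR5 in Rybp+/+ cells covers 79.0% of active RING1B peaks and 22.1% and 23.7% of the other classes, and STAT3 in DOX+ cells covers 93.4%.

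Nearly all members remained peaks in Rybp-/- cells. An H3K4me3 peak of Rybp-/- cells lay at 7350 (99.5%) of them and was missing at 34, compared with 97.6% of peaks with RING1B alone and 79.6% with H3K27ac alone. Among peaks of like width the difference from RING1B alone was -0.16 points. Both classes were at 100% in width groups 3 to 10. Members were lower in group 1 (83.5% against 87.4%) and group 2 (97.4% against 99.7%). The gap to H3K27ac alone shrank to 1.01 points among peaks of like width, with members higher in 6 of 10 width groups and both classes at 100% in groups 7 to 10. H3K27ac lay at 7199 (97.5%) in Rybp-/- cells and was missing at 185, among them the Egr3 peak, while 91.6% of the peaks with H3K27ac alone kept it. Among peaks of like width that difference was -1.04 points, with members higher in 3 of 10 groups. WDR5 lay at 6058 (82.0%, Wilson interval 81.2–82.9%) in Rybp-/- cells, against 26.6% of peaks with RING1B alone and 25.4% with H3K27ac alone. It was carried in both genotypes by 5588 members (75.7%), only in Rybp+/+ by 249 (3.37%) and only in Rybp-/- by 470 (6.37%). These last 2 shares were 4.07% and 8.59% with RING1B alone, and 1.82% and 3.47% with H3K27ac alone. Within each list, the median change of a member's rank from Rybp+/+ to Rybp-/- was -0.65 percentile points for H3K4me3, 0.69 for H3K27ac and 0.51 for WDR5. Over all H3K4me3 peaks it was -0.63, 0.24 and 1.04, and the 2 lists of a mark differ in length, with 57642 and 62669 peaks for H3K27ac. A rank within a list cannot show a change shared by the whole list. Where both genotypes had a peak, median H3K27ac fold enrichment at members was 11.6 in Rybp+/+ and 10.5 in Rybp-/- cells. Over all such H3K4me3 peaks it was 10.2 and 8.83. For H3K4me3 the member medians were 37.8 and 38.9, and for WDR5 5.78 and 5.80. The paper reports a global loss of H3K27ac signal after RYBP depletion. With 1 merged list per genotype, none of these differences could be tested against replicate error.

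RING1B itself was assayed in 3 lists that the choice did not use. Members and peaks with RING1B alone were nevertheless chosen for a RING1B peak in shEV cells, and those with H3K27ac alone for lacking one. Their contrast with H3K27ac alone therefore follows from the choice, and against shEV the share of members can only be lower. In DOX- cells 6817 of the active RING1B peaks (92.3%) had a RING1B peak, beside 90.8% of peaks with RING1B alone and 17.8% with H3K27ac alone. In shStat3 cells it was 5573 (75.5%) against 83.3% and 5.61%. In DOX+ cells it was 5543 (75.1%) against 87.3% and 5.74%. All 3 lists held RING1B at 4911 members (66.5%), and none did at 437 (5.92%). The members with little RING1B enrichment in shEV cells were the ones less often found again. This order uses a value of the list that chose them and is a description. Over 5 groups of equal size by that enrichment, from lowest to highest, RING1B was present in shStat3 at 56.1%, 61.3%, 71.3%, 89.6% and 99.0%, and in DOX+ at 56.1%, 61.5%, 70.5%, 87.9% and 99.5%. The lists held 14408 (shEV), 12017 (shStat3), 17021 (DOX-) and 12864 (DOX+) peaks, so a share moves also with how many peaks were called. The difference from RING1B alone moved with what was matched. Among H3K4me3 peaks of like width it was -5.57 points in DOX-, -20.2 in shStat3 and -21.6 in DOX+ cells, with members higher in 0 of 10 groups in each. Within 10 groups of like RING1B enrichment in shEV cells, a value of the rule, it was 12.9 (10 of 10), 11.7 (8 of 10) and 3.31 points (8 of 10).

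Of the 6817 members with RING1B in DOX- cells, 5488 (80.5%, Wilson interval 79.5–81.4%) kept it in DOX+ cells, against 5781 of 6142 peaks with RING1B alone (94.1%, 93.5–94.7%). It was lost at 1329 members and gained at 55. Weak peaks were lost more often in both classes, which were therefore divided into 10 groups by their RING1B enrichment in DOX- cells. In the weakest, group 1, 39.6% of members and 61.0% of peaks with RING1B alone were kept. In group 2 it was 55.6% and 77.1%, in group 3 74.0% and 87.5%, and in group 5 94.0% and 98.2%. Over the 10 groups the difference in the share kept was -8.68 points, with members the lower class in 7 groups. Where RING1B was kept, the median change of rank was lower for members in all 10 groups, with an average difference of -13.6 percentile points. In group 4 the median change was -24.9 points for members and -3.65 for RING1B alone. These ranks are percentiles within lists of 17021 (DOX-) and 12864 (DOX+) peaks, so a change of rank depends on the length of the lists and is not a change of binding. The groups were also cut on the same DOX- values that the change is taken from, and only kept peaks count. The part of this in the difference between classes was not tested. A lower rank with DOX was common to all classes, with 4725 of 5488 members in both lists (86.1%), 69.8% of peaks with RING1B alone, 77.3% of the few with H3K27ac alone and 76.4% of all H3K4me3 peaks with RING1B in both. The DOX- and DOX+ lists are 1 merged set each, and the change could not be set against replicate error.

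**Figure D2:**
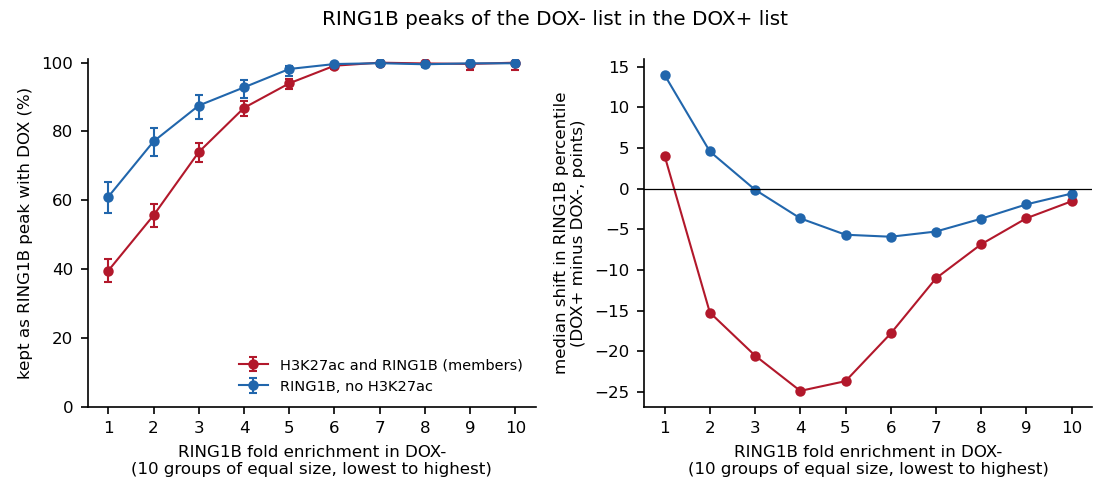
RING1B peaks of DOX- cells in 10 groups of equal size by their fold enrichment in DOX- (x axis, lowest to highest), for active RING1B peaks and peaks with RING1B alone. The left panel gives the share still called with DOX (%, bars are 95% Wilson intervals), which is 39.6% against 61.0% in the weakest group, and the right panel the median change of rank within lists of unequal length, in percentile points, which is lower for active RING1B peaks (members) in all 10 groups.

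The strongest members kept their RING1B peak with DOX. RING1B fold enrichment at Tcfap2c was 33.3 in DOX- and 23.1 in DOX+, at Chd7 46.4 and 34.6, at Cpeb2 55.0 and 36.5, and at Gnas 56.7 and 40.9. At Egr3 it was 83.3 and 53.7, and at Efna5 65.0 and 47.9. All 12 members named for their strength were lower with DOX, and since fold enrichment scales with library quality, a lower value at every strong peak cannot be told apart from a change of the whole list. Between shEV and shStat3 the values went both ways, from 38.7 to 41.9 at Tcfap2c, from 24.3 to 16.3 at Chd7, from 30.8 to 42.9 at Cpeb2 and from 37.0 to 48.8 at Gnas. Where RING1B was kept in shStat3 cells, the change of rank within 10 groups of like shEV enrichment was -3.61 points relative to RING1B alone, lower for members in 9 of 10. These ranks too lie within lists of unequal length (14408 and 12017 peaks), and the groups use a value of the rule.

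STAT3 was found at few members unless DOX was given. Of active RING1B peaks, 945 (12.8%) overlapped a STAT3 peak in Rybp+/+ cells, against 8.99% with RING1B alone, 2.14% with H3K27ac alone and 4.84% of all H3K4me3 peaks. In Rybp-/- cells it was 822 (11.1%), against 6.76% with RING1B alone and 1.65% with H3K27ac alone. STAT3 was in both genotypes at 266 members (3.60%), against 1.95% and 0.517%. In DOX- cells it was 1269 (17.2%), against 5.83% with RING1B alone and 2.28% with H3K27ac alone. Among peaks of like width, the difference from RING1B alone was -5.60 points in Rybp+/+ cells, with members higher in 2 of 10 groups, and 3.43 points in DOX- cells, higher in 10 of 10. With DOX, the STAT3 list grew from 2816 to 30663 peaks and covered 6900 members (93.4%), 84.6% of peaks with RING1B alone and 29.4% with H3K27ac alone. Among peaks of like width the difference from RING1B alone was -3.27 points with DOX, members higher in 1 of 10 groups. The STAT3 share in Rybp+/+ cells went up with RING1B among members, from 9.61% in the lowest of 5 groups to 10.6%, 11.4%, 12.9% and 19.4%.

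RING1B was kept with DOX at 82.7% of the 6538 members that had a DOX+ STAT3 peak, against 28.0% of the 279 that had none. In peaks with RING1B alone these shares were 95.9% of 5393 and 81.3% of 749. Members with a Rybp+/+ STAT3 peak kept RING1B in shStat3 cells at 88.7% of 945, against 73.5% of the other 6439. Members with a Rybp+/+ WDR5 peak kept it with DOX at 82.0% of 5640, against 73.2% of 1177, and in shStat3 cells at 79.7% against 59.5%. The part of peak strength in these differences was not tested.

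RNA from the genes at active RING1B peaks was at far higher levels than RNA from genes with RING1B alone. Median CPM (counts scaled to the total of the library) per kb of the protein-coding genes were 7.52 and 7.60 in the 2 Rybp+/+ libraries, against 0.163 and 0.169 for genes with RING1B alone and 10.7 and 10.8 with H3K27ac alone. A level of 1 or more was reached by 86.3% and 86.6% of them, against 20.2% of genes with RING1B alone in the first library. The libraries held 14512857 to 81049618 counts in named genes, and all 8 ESC markers examined were at 1 CPM or more in every library. Their sum was nevertheless lower in shRybp (6569 and 6536 CPM, shEV 7990 and 8252) and rTRS DOX libraries (3543 and 3301 CPM, NTC 5165 and 4850). It was also lower than in the controls in shWdr5 and RYBP phase disruption libraries, higher in Rybp-/- libraries, and overlapped the controls in the remaining comparisons. In these bulk samples, fewer cells that express a gene and less RNA per cell cannot be told apart. In each comparison all genes were fitted together with edgeR's quasi-likelihood test, and a gene was called at a Benjamini-Hochberg adjusted p under 0.05. Whether the 2 libraries of a group came from separate cultures is not given in the sources used here, so the p-values measure only the spread between these libraries, which may be technical. Most genes named below were picked among called genes for large changes or small adjusted p. That their 2 groups lie apart follows from this choice and is given only as a description.

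In Rybp-/- cells, genes at active RING1B peaks more often fell than rose, by small amounts. Of 6964 tested, 1470 (21.1%) rose and 2243 (32.2%) fell, beside 22.8% and 22.7% of all genes tested. Their median log2 fold change was -0.05. Only 111 (1.59%) rose and 47 (0.675%) fell by more than 1 on the log2 scale, where the background was 6.6% and 1.24%. Because highly expressed genes are called more easily, the shares were also compared within 10 groups of like level, where the share of members that fell differed from that of other genes by 6.81 points, higher in 10 of 10 groups, and the share that rose by -4.53 points. Genes with RING1B alone differed in direction, as 37.0% rose and 9.93% fell, with a median log2 fold change of 0.39. Of genes with H3K27ac alone, 19.7% rose and 26.1% fell.

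Rybp, whose own promoter is an active RING1B peak (chr6:100232841-100239220) inside a super-enhancer, was at 110.4 and 110.2 CPM in Rybp+/+ and at 24.8 and 25.0 CPM in Rybp-/- libraries. It fell by 2.15 on the log2 scale (SE 0.05, edgeR adjusted p = 8.09e-27), and the 2 groups did not overlap. Which exons are deleted is not given in the sources used here, and reads from the rest of the gene still count. The share of cells in which 4-OHT deleted the gene is not given either. Of 7 listed germline genes at members 3 rose and 3 fell, at a median log2 fold change of -0.09, where 16 of all 23 tested in that list rose and 4 fell. Those that rose at members were Taf7l, Dazl and Stk31. Taf7l, a germ-cell paralogue of a TFIID subunit, was at 1.56 and 2.16 CPM in Rybp+/+ and at 10.9 and 11.2 CPM in Rybp-/- libraries, a log2 fold change of 2.57 (SE 0.14, edgeR adjusted p = 1.33e-16). Tex19.1, a gene outside that list that restrains retrotransposons, rose from 49.3 and 49.9 to 156 and 159.7 CPM (log2 fold change 1.67). Dazl, a germ-cell RNA-binding protein, rose from 9.45 and 8.87 to 27.1 and 27.0 CPM (log2 fold change 1.56), and Stk31 less, from 10.1 and 9.51 to 22.0 and 25.2 CPM (1.27). In each of these genes both Rybp-/- libraries were above both Rybp+/+ libraries. Id1, an inhibitor of basic helix-loop-helix factors, rose from 5.19 and 5.80 to 17.4 and 15.1 CPM (log2 fold change 1.56), as did its relative Id3 from 30.9 and 31.9 to 83.5 and 83.0 CPM (1.41). The remaining large rise was at 8030474K03Rik (log2 fold change 1.93).

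Among the falls, Otx2, a homeobox factor of the primed state, went from 40.3 and 37.3 to 10.8 and 11.6 CPM (log2 fold change -1.79, edgeR adjusted p = 2.18e-20). Its RING1B peak (chr14:49283197-49287389) had fold enrichments of 27.1 in shEV and 10.8 in shStat3 cells. Mapk12, which encodes p38 gamma, fell from 12.9 and 13.6 to 5.82 and 4.73 CPM (-1.33), and Ptpn13, a tyrosine phosphatase, from 33.1 and 34.9 to 14.9 and 15.0 CPM (-1.19). The libraries of the 2 genotypes lay apart in all of them, and Bahcc1 fell by 1.24. Of the listed genes at active RING1B peaks, 10 of 17 pluripotency genes fell and 5 rose, at a median log2 fold change of -0.10 where all genes tested had 0.0016. Over the whole list of 30, members or not, 11 fell and 11 rose, at a median of 0.02. Dnmt3b, a DNA methyltransferase, fell from 497 and 503 to 322 and 318 CPM, while Tbx3 rose from 158 and 166 to 277 and 276 CPM. Of 14 replication genes 10 fell and none rose (median -0.13), among them Pold1, the catalytic subunit of DNA polymerase delta, from 214 and 228 to 154 and 150.2 CPM. Of 18 PRC1 genes 9 fell and 5 rose (median -0.08), with Kdm2b, the CpG-island binding subunit, falling from 142 and 144 to 95.5 and 93.8 CPM. The summed level of 8 fibroblast markers was 61.4 and 60.6 CPM in Rybp+/+ and 123 and 127 CPM in Rybp-/- libraries, that of primitive endoderm markers 5.79 and 6.62 against 11.1 and 10.9 CPM, with Dab2 at 0 in every library, and that of the 3 measured markers of two-cell-like cells 0.204 and 0.174 against 47.0 and 46.3 CPM. The part of these cells in the changes was not tested.

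**Figure D3:**
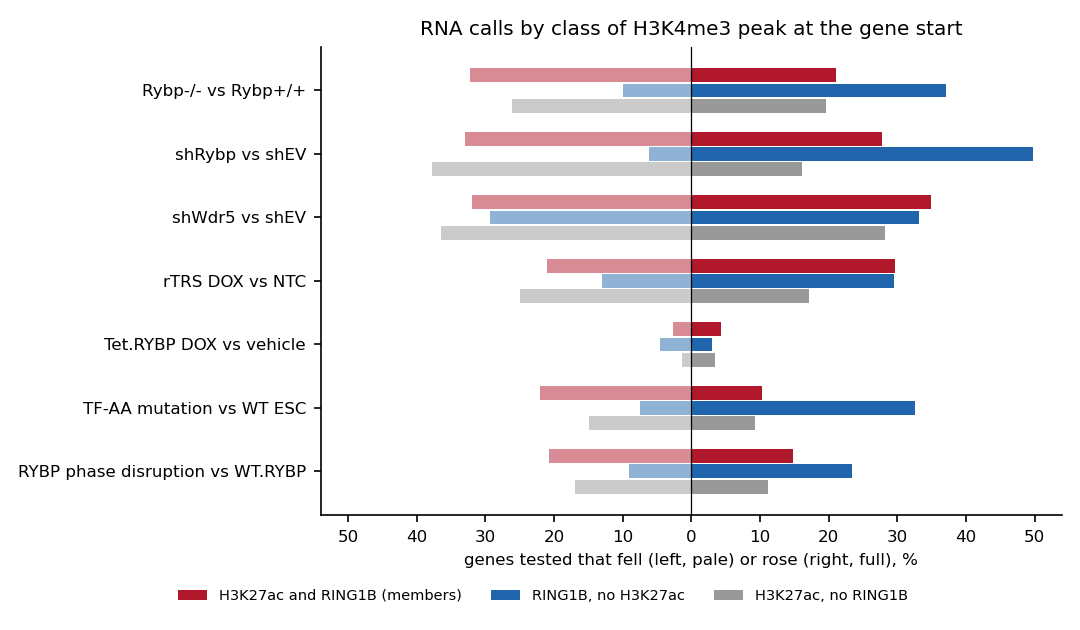
Share of genes tested (%, x axis) that fell (pale bars, left) or rose (full bars, right) at an edgeR adjusted p under 0.05, for the 7 RNA comparisons (y axis) and 3 classes of H3K4me3 peak at the gene's start site. Genes at active RING1B peaks fell more often than they rose in Rybp-/- cells (32.2% against 21.1%), while genes with RING1B alone rose more often (37.0% against 9.93%).

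In shRybp cells, where Rybp was knocked down, falls were again more numerous than rises. Large changes were mostly rises, as they were over all genes. Of 6909 genes at active RING1B peaks tested, 1916 (27.7%) rose and 2281 (33.0%) fell, beside 26.8% and 26% of all genes tested, with a median log2 fold change of -0.03. By more than 1 on the log2 scale, 446 (6.46%) rose and 66 (0.955%) fell, both below the background of 11.4% and 1.22%. Within 10 groups of like level the share of members that rose differed from that of other genes by 4.03 points, higher in 7 of 10, and the share that fell by -3.33 points, higher in 3 of 10. Rybp went from 85.7 and 86.4 to 35.8 and 36.6 CPM (log2 fold change -1.25, SE 0.06, edgeR adjusted p = 4.54e-12).

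The 5 largest rises in shRybp cells were at Thbs1, Krt19, Ptgs2, S100a6 and Wnt7b. Thbs1, a matrix glycoprotein, was at 0.405 and 0.734 CPM in shEV and 21.4 and 22.6 CPM in shRybp libraries (log2 fold change 5.28, SE 0.18, edgeR adjusted p = 8.32e-14). Krt19, a keratin, rose from 1.92 and 1.71 to 41.1 and 43.3 CPM (4.53), and Ptgs2, a cyclooxygenase, from 1.14 and 0.924 to 18.5 and 20.8 CPM (4.24). S100a6, a calcium-binding protein, rose from 5.23 and 4.73 to 54.4 and 53.6 CPM (3.44), and the Wnt ligand Wnt7b from 2.07 and 2.04 to 17.1 and 21.9 CPM (3.24). Both shRybp libraries were above both shEV libraries in all 5. The peaks at Thbs1, Krt19, Ptgs2 and S100a6 carried no WDR5 peak, and that at Wnt7b carried one, with a fold enrichment of 3.93 in Rybp+/+ cells. Genes at the members without a WDR5 peak rose in 292 and fell in 151 of 721 cases, against 1624 and 2130 of 6188 at members with one, at median levels of 11.2 and 35.8 CPM in shEV cells. In shWdr5 cells the genes at members without a WDR5 peak rose in 235 and fell in 243 of 689 cases, and those at members with one in 2120 and 1919 of 6069.

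The largest falls in shRybp cells included Gbx2, a homeobox factor downstream of LIF (chr1:91822929-91829991), from 88.9 and 99.2 to 27.5 and 27.8 CPM (log2 fold change -1.77, edgeR adjusted p = 2.14e-13), and Actn3, an alpha-actinin, from 45.3 and 46.3 to 11.5 and 13.3 CPM (-1.89). Cdk2ap1, a CDK2-associated protein, fell from 149.8 and 169.5 to 50.8 and 47.0 CPM (-1.71). All 3 had shEV and shRybp libraries apart, and Chac1 (-1.63) and Ctdsp2 fell too. Of 14 replication genes 13 fell, of 22 ribosomal protein genes 17, of 11 COMPASS genes 7 and of 18 PRC1 genes 11, while 0, 1, 0 and 7 of these rose. The medians of these lists were -0.49, -0.21, -0.27 and -0.23, where all genes tested had 0.018. Wdr5 was among the COMPASS genes that fell, from 372 and 364 to 265 and 259.7 CPM (-0.49). Of 17 pluripotency genes 9 fell and 3 rose, with Lin28a, an RNA-binding protein that blocks let-7, from 312 and 312 to 114 and 109.6 CPM (-1.48). Ccne1, which encodes cyclin E, fell from 223 and 206 to 95.4 and 90.4 CPM (-1.21). Markers of two-cell-like cells summed to 42.4 and 40.0 CPM in shEV and 181 and 172 CPM in shRybp libraries, and their part was not tested.

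Loss of RYBP by knockout and by knockdown gave the same call at some members and opposite calls at others. Over the 6849 genes at active RING1B peaks tested in both, 669 (9.77%) rose and 919 (13.4%) fell in both, where 10.8% and 9.74% of all genes tested in both did. Opposite calls were 395 (5.77%) that rose in Rybp-/- and fell in shRybp cells and 478 (6.98%) that fell in Rybp-/- and rose in shRybp cells, beside 4.95% and 4.64% of all genes. The difference between the 2 effects passed edgeR's interaction test at 3720 of them (54.3%), where 40.5% of all genes tested did. All 873 genes with opposite calls were among these, so for them the test adds nothing to the calls. The lines (R7.15 and R1), the means of depletion and the 4-OHT differ between the 2 experiments and cannot be told apart.

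In shWdr5 cells, which share their controls with shRybp cells, 2355 of 6758 member genes tested (34.8%) rose and 2162 (32.0%) fell, beside 31.5% and 31.5% of all genes tested. By more than 1 on the log2 scale, 572 (8.46%) rose and 334 (4.94%) fell (background 10.9% and 7.69%). Within groups of like level the share of members that rose differed by 3.03 points from that of other genes, higher in 6 of 10, and the share that fell by -4.54 points, higher in 0 of 10. Wdr5, whose promoter (chr2:27369277-27373380) is a member, went from 349.8 and 343 to 60.05 and 58.2 CPM (log2 fold change -2.55, SE 0.05, edgeR adjusted p = 4.69e-21), and Rybp rose from 79.9 and 81.3 to 120.6 and 117 CPM (0.56). Cd109, a membrane glycoprotein, rose from 2.43 and 1.77 to 47.5 and 44.9 CPM (4.45), and Tap1, the antigen peptide transporter, from 6.73 and 5.87 to 73.6 and 76.0 CPM (3.56). Actn3 fell from 42.7 and 43.8 to 4.91 and 4.08 CPM (-3.26) and Gbx2 from 83.6 and 91.8 to 14.6 and 16.2 CPM (-2.51). The 2 groups did not overlap in any of them. The keratin gene Krt7 (3.69), the Wnt ligand gene Wnt9a (3.62) and Sema6a, a semaphorin (3.50), rose too, and Scd2, a fatty acid desaturase (-2.51), and 2810417H13Rik (-2.54) fell. Cdkn1a, which encodes the CDK inhibitor p21, rose from 53.9 and 50.8 to 214 and 214 CPM (2.03). Of 17 pluripotency genes 12 fell and 4 rose, and of 13 genes of LIF and STAT3 signalling 8 fell and 2 rose, at median log2 fold changes of -0.43 and -0.72. Otx2 rose, from 34.9 and 34.6 to 103 and 104 CPM (1.58). Two-cell-like markers summed to 39.4 and 37.6 CPM in shEV and 15.3 and 14.4 CPM in shWdr5 libraries, and their part was not tested.

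**Figure D4:**
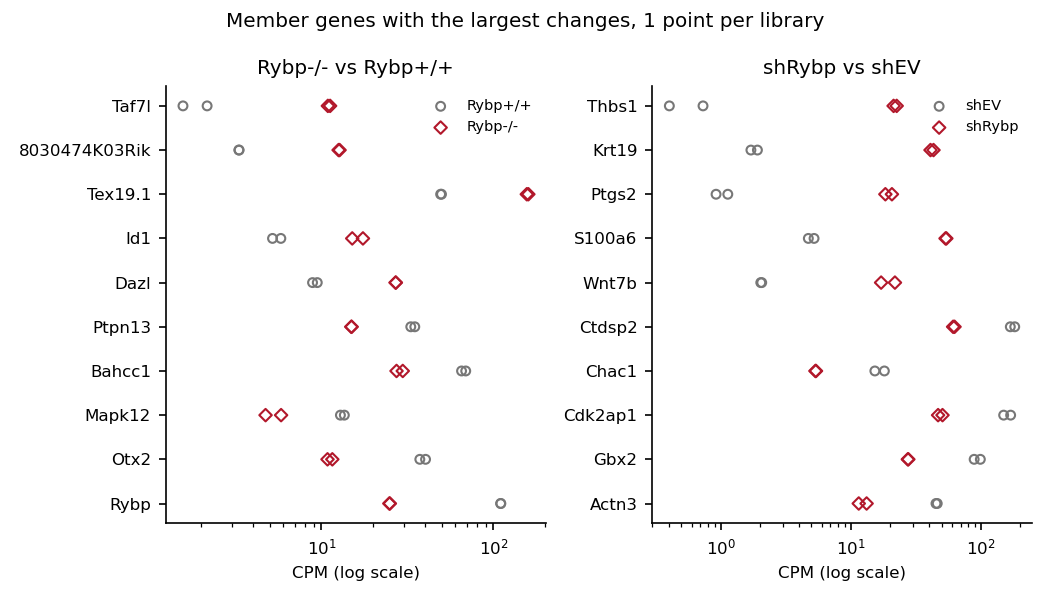
CPM (x axis, log scale) of the genes at active RING1B peaks with the largest rises and falls in Rybp-/- (left) and shRybp cells (right), 1 point per library, with control libraries as grey circles and the others as red diamonds. The genes were chosen for large called changes, so the groups lie apart by choice, as for Thbs1 at 0.405 and 0.734 CPM in shEV and 21.4 and 22.6 CPM in shRybp cells.

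In the libraries labelled rTRS DOX, 2044 of 6898 member genes tested (29.6%) rose and 1452 (21.0%) fell, beside 23% and 20.4% of all genes tested. By more than 1 on the log2 scale, 485 (7.03%) rose and 114 (1.65%) fell (background 7.7% and 4.28%). Within groups of like level the difference from other genes was 8.34 points in the share that rose, higher in 8 of 10 groups, and -5.76 points in the share that fell, higher in 0 of 10. Rybp itself was not called, with 113 and 110.5 CPM in NTC and 102 and 99.8 CPM in DOX libraries (log2 fold change -0.15, edgeR adjusted p = 0.0762), and Stat3 rose slightly, from 159 and 172 to 191 and 188 CPM (0.20, edgeR adjusted p = 0.0259). The counts therefore do not show a rise of Rybp with DOX in this line.

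Arl4c, a small GTPase with a RING1B peak (chr1:90596438-90599600) of 32.8 in DOX- and 24.1 in DOX+ cells, changed most in rTRS cells. It rose from 14.0 and 14.3 to 316 and 315 CPM (log2 fold change 4.48, SE 0.07, edgeR adjusted p = 9.61e-13). Dhrs3, a retinaldehyde reductase, rose from 1.13 and 0.689 to 12.0 and 10.3 CPM (3.61), and Prtg, a neural immunoglobulin-family receptor, from 12.9 and 10.8 to 134 and 146 CPM (3.57). Inhbb, an activin subunit, fell from 89.3 and 84.0 to 8.90 and 8.72 CPM (-3.30), and Spry4, an inhibitor of receptor tyrosine kinase signalling, from 154 and 169 to 20.6 and 21.5 CPM (-2.94). All 5 had the groups apart, and 2410004A20Rik fell by 2.82. Of 17 pluripotency genes at members 13 fell and 2 rose, at a median of -0.59, among them Nr0b1, a nuclear receptor that falls when ESCs differentiate, from 74.0 and 70.2 to 16.6 and 17.6 CPM (-2.08). Of 13 genes of LIF and STAT3 signalling 6 fell and 5 rose, with Socs3, the feedback inhibitor induced by STAT3, from 284 and 249.9 to 84.5 and 81.1 CPM (-1.69). Of 7 germline genes 6 fell, Dazl from 8.53 and 8.90 to 4.80 and 4.61 CPM (-0.89). Genes at members with RING1B in both DOX lists rose in 1728 and fell in 1049 of 5355 cases, whereas those with RING1B in DOX- only rose in 260 and fell in 345 of 1276, at median levels of 29.5 and 38.7 CPM in NTC cells. The sets also differed in cells without DOX. Genes of these 2 sets rose in 1637 and 216 and fell in 1697 and 493 of 5362 and 1283 cases in shRybp cells, and rose in 1931 and 350 and fell in 1618 and 446 of 5244 and 1255 cases in shWdr5 cells. These peaks and RNAs come from separately named lines. In rTRS cells the two-cell-like markers summed to 23.5 and 25.3 CPM in NTC and 11.5 and 10.8 CPM in DOX libraries, and their part was not tested.

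Overexpression of RYBP in the Tet.RYBP line moved few genes. Of 6751 member genes tested 289 (4.28%) rose and 180 (2.67%) fell, beside 3.63% and 2.39% of all genes tested. By more than 1 on the log2 scale, 20 (0.296%) rose and 13 (0.193%) fell (background 0.549% and 0.355%). Within groups of like level the shares differed from those of other genes by 0.28 and -0.03 points. Rybp rose from 135 and 145 to 522 and 535 CPM (log2 fold change 1.91, SE 0.05, edgeR adjusted p = 6.98e-24), with the groups apart. Cdh3, which encodes P-cadherin, rose from 20.2 and 18.3 to 50.9 and 49.6 CPM (1.38), and Islr2, an immunoglobulin-family membrane protein, fell from 27.2 and 25.9 to 10.2 and 10.3 CPM (-1.38). Shf rose (1.34), and Mpdz and the sialyltransferase gene St6gal1 fell (-0.88 each). The sums of two-cell-like markers were 0.277 and 0.782 CPM in vehicle and 4.13 and 4.94 CPM in DOX libraries. Leaving out vehicle replicate 1 or 2 raised the 469 calls to 849 and 782, and leaving out DOX replicate 1 or 2 lowered them to 192 and 198.

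With the TF-AA mutation, members more often fell. Of 6700 tested 693 (10.3%) rose and 1476 (22.0%) fell, beside 14.4% and 16.1% of all genes tested. By more than 1 on the log2 scale, 128 (1.91%) rose and 92 (1.37%) fell (background 6.4% and 1.74%). Within groups of like level the difference from other genes was 7.52 points in the share that fell, higher in 9 of 10 groups, and -4.50 points in the share that rose. Rybp, Wdr5 and Stat3 were not called (edgeR adjusted p = 0.0959, 0.242 and 0.425). Stk31, a germ-cell kinase, rose from 5.83 and 6.82 to 35.9 and 39.1 CPM (log2 fold change 2.57), and Dazl from 2.15 and 1.38 to 10.3 and 9.82 CPM (2.50). Klhl13, a CUL3 adaptor, fell from 142 and 165 to 32.5 and 33.7 CPM (-2.22). In each of them the groups did not overlap. Sox21, a SOX transcription factor, rose (2.16), and Pltp, a phospholipid transfer protein, and Bnip3, a mitophagy receptor, fell (-2.18 and -1.98). Of 25 feedback regulators and targets of signalling 13 fell and 1 rose, at a median of -0.38. Gab1, a docking protein of receptor tyrosine kinases, fell from 397 and 410.3 to 116 and 118 CPM (-1.79), and Ptch1, the Hedgehog receptor, from 173 and 176 to 76.1 and 72.1 CPM (-1.24). Genes at members with a Rybp+/+ STAT3 peak fell in 265 and rose in 78 of 932 cases, against 1211 and 615 of 5768 without one. In rTRS DOX cells genes with such a peak instead rose in 334 and fell in 170 of 960 cases, against 1710 and 1282 of 5938. The 3 measured markers of two-cell-like cells summed to 0.764 and 0.0988 CPM in WT ESC and 44.1 and 44.0 CPM in TF-AA libraries. Their part in the changes was not tested. Without TF-AA replicate 1 or 2 the 2169 calls became 1297 and 1301.

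In RYBP phase disruption cells 986 of 6650 member genes tested (14.8%) rose and 1381 (20.8%) fell, beside 16.1% and 17% of all genes tested. By more than 1 on the log2 scale, 103 (1.55%) rose and 42 (0.632%) fell (background 5.44% and 1.32%). Within groups of like level members fell 2.02 points more often than other genes, higher in 5 of 10. Rybp, overexpressed in both groups, was at 749 and 753 CPM in WT.RYBP and 662 and 626 CPM in RYBP phase disruption libraries (log2 fold change -0.22, edgeR adjusted p = 6.8e-05). Epm2a, which encodes laforin, rose from 1.51 and 2.43 to 10.5 and 14.9 CPM (2.68), and Dazl from 19.8 and 19.1 to 70.5 and 65.8 CPM (1.81). Otx2 fell from 25.8 and 25.5 to 9.51 and 8.34 CPM (-1.52), and Trp73, which encodes the p53 relative p73, from 13.0 and 14.2 to 4.55 and 4.71 CPM (-1.55). The groups were apart in all 4. Pth1r, a hormone receptor, rose (1.88), and Slc6a15, an amino acid transporter, fell (-1.56). Of 7 germline genes 5 rose and 1 fell (median 0.67), of 7 developmental transcription factors and ligands 5 rose and none fell (median 0.59), and of 17 pluripotency genes 9 fell and 3 rose (median -0.25), among them Lin28a from 422 and 423 to 215 and 221 CPM (-0.95). Markers of two-cell-like cells summed to 45.0 and 41.6 CPM in WT.RYBP and 399 and 379 CPM in RYBP phase disruption libraries. The 8 fibroblast markers summed to 444 and 434 CPM in WT.RYBP and 353 and 382 CPM in RYBP phase disruption libraries, more than in any library of the other comparisons. The part of either set of cells was not tested. Without WT.RYBP replicate 1, 642 genes rose in place of 986.

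Among members, genes with the most RING1B were called up more often in all 7 comparisons. The groups were made by a value of the rule, so this is a description. From the lowest to the highest of 5 groups by RING1B enrichment in shEV cells, the share that rose went from 17.9% to 31.1% in Rybp-/-, from 18.5% to 48.1% in shRybp, from 33.6% to 42.4% in shWdr5 and from 24.2% to 43.1% in rTRS DOX cells. It went from 3.33% to 5.91% with RYBP overexpression, from 6.83% to 19.7% with TF-AA mutation and from 10.8% to 22.7% in RYBP phase disruption. In the same order, 37.0%, 49.7%, 33.2%, 29.5%, 3.01%, 32.7% and 23.4% of genes with RING1B alone rose. Of all genes tested it was 22.8%, 26.8%, 31.5%, 23%, 3.63%, 14.4% and 16.1%. The share that fell went from 33.1% to 25.9% in Rybp-/- and from 39.0% to 18.1% in shRybp cells. Genes of the highest group were less expressed, with a median of 12.4 CPM in Rybp+/+ cells against 43.3 CPM in the lowest, so the groups were compared again within 5 groups of like level. There genes of the highest RING1B group rose more often than the other members by 14.2 points in Rybp-/-, 23.3 in shRybp, 12.6 in shWdr5, 18.0 in rTRS DOX, 3.25 with RYBP overexpression, 10.9 with TF-AA mutation and 9.44 in RYBP phase disruption, higher in 5 of 5 level groups in each. The difference in the share that fell was -8.91 points in shRybp cells, with the highest group higher in 0 of 5 level groups, and -1.92 points in Rybp-/- cells, higher in 1 of 5. It was -3.66 points in shWdr5 cells (1 of 5) and -3.56 in rTRS DOX cells (0 of 5). It was positive with RYBP overexpression, at 3.3 points (5 of 5), in RYBP phase disruption, at 1.97 points (4 of 5), and with TF-AA mutation, at 1.07 points (2 of 5). The shRybp and shWdr5 comparisons share their control libraries, and neighbouring genes can share a peak, so these shares are a description of the genes and were not tested.

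**Figure D5:**
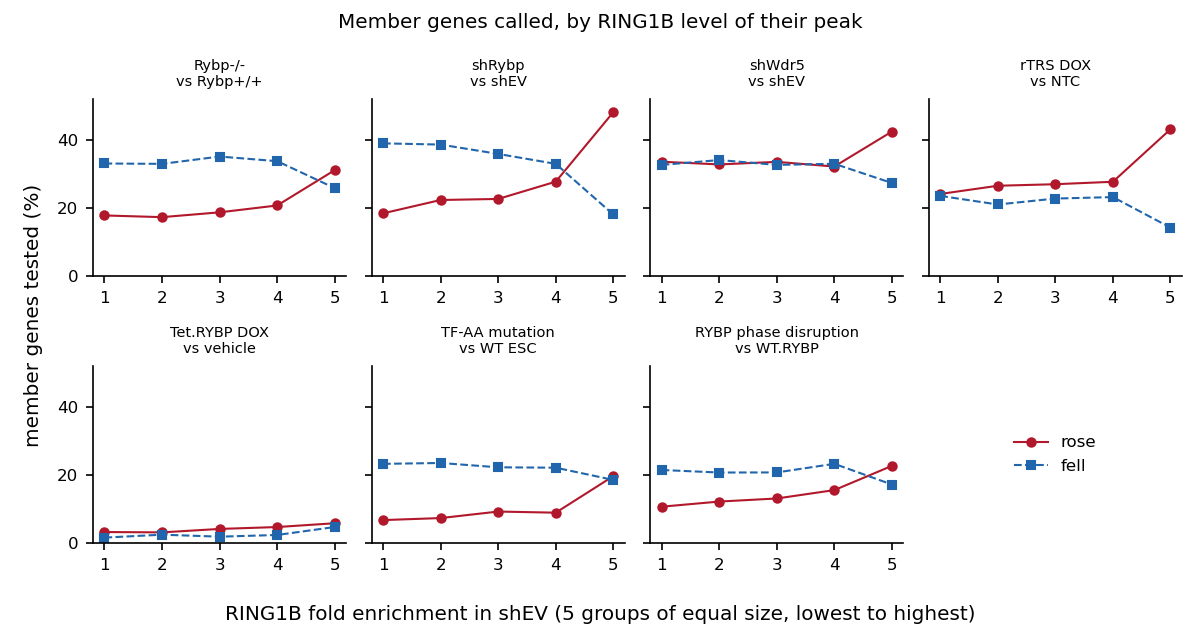
Share of genes at active RING1B peaks (%, y axis) that rose or fell at an edgeR adjusted p under 0.05, in 5 groups by RING1B fold enrichment in shEV cells (x axis, lowest to highest), 1 panel per RNA comparison. The share that rose is higher in the highest than in the lowest group in all 7 panels, for example 48.1% against 18.5% in shRybp cells.

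Of genes at members inside super-enhancers, 312 of 1507 tested rose and 695 fell in shRybp cells, against 1604 and 1586 of 5402 outside super-enhancers, where 26.8% of all genes tested rose and 26% fell. With TF-AA mutation 94 of 1454 rose and 398 fell inside, and 599 and 1078 of 5246 outside (background 14.4% and 16.1%). In RYBP phase disruption 214 of 1440 rose and 386 fell inside, and 772 and 995 of 5210 outside (background 16.1% and 17%). In Rybp-/- cells 356 of 1525 rose and 479 fell inside, and 1114 and 1764 of 5439 outside (background 22.8% and 22.7%). In shWdr5 cells they were 537 and 522 of 1474 inside, and 1818 and 1640 of 5284 outside (background 31.5% and 31.5%). In rTRS DOX cells 395 of 1497 rose and 386 fell inside, against 1649 and 1066 of 5401 outside (background 23% and 20.4%). With RYBP overexpression it was 77 and 45 of 1475 against 212 and 135 of 5276 (background 3.63% and 2.39%). Genes inside were the more highly expressed, with a median of 72.4 CPM in shEV cells against 26.6 CPM outside, and the part of level in these counts was not tested. Dazl, described above for its rise in Rybp-/- cells, was called in most comparisons. Its promoter (chr17:50431476-50433360) had RING1B enrichments of 14.8 in shEV, 13.4 in shStat3, 24.2 in DOX- and 15.9 in DOX+ cells, and WDR5 enrichments of 6.15 in Rybp+/+ and 9.52 in Rybp-/- cells. Its RNA rose in Rybp-/-, shRybp (from 9.56 and 11.2 to 36.1 and 34.8 CPM), shWdr5 (from 9.03 and 10.5 to 55.5 and 57.2 CPM), TF-AA and RYBP phase disruption cells, fell in rTRS DOX cells and was not called with RYBP overexpression (edgeR adjusted p = 0.216). Arl4c likewise rose in rTRS DOX, shRybp (from 6.07 and 6.36 to 23.2 and 24.8 CPM), shWdr5 (from 5.94 and 6.07 to 31.1 and 31.6 CPM) and Tet.RYBP DOX cells (edgeR adjusted p = 0.0359) and fell in Rybp-/- cells, from 36.6 and 38.2 to 30.4 and 26.6 CPM (log2 fold change -0.39).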

How the data were processed

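ChIP-seq peak lists and RNA count tables were used as deposited (mm9). Per the study's methods, the authors trimmed reads with Trim Galore, aligned RNA with STAR and counted it with HTSeq, and called peaks with MACS2 against input after removing duplicates, on merged replicates where there were 2. The deposited peak values are fold enrichment (a ratio over input), −log10 q, and summit offset, and the RNA values are raw counts per gene. The study's methods give a false discovery rate of 0.01 (−log10 q of 2) for peaks, but the deposited lists hold peaks down to −log10 q of 1.30–1.38 and, for RING1B, 1.01–1.04. The lists were used whole. The peak names of the DOX lists hold the word sampled, which the sources do not explain. Rows naming no gene held 13.7–58.5% of the counts and were left out.

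The members and gene lists were chosen with earlier results of these data known. Peaks sharing 1 bp or more were counted as overlapping. Genes were assigned by a GENCODE vM1 transcript start inside a peak, taking the active RING1B class first. Each count table was fitted apart with edgeR 4.0.16 in R 4.3.3 (TMM, filterByExpr, quasi-likelihood test, two-sided, Benjamini-Hochberg over all genes tested, adjusted p under 0.05), after a test on simulated data. The shEV libraries stand in 2 tables at different depths and were used within each. In 1 table the columns headed NTC were taken as Tet.RYBP vehicle, and a column headed S5-DOX as the second rTRS DOX library. Counts of 2 replicates differed by more than sampling noise (chi-square per degree of freedom 2.07–12.4), so all were kept.

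Regions named were the 8 members strongest in all 3 lists at coding starts, the 4 highest in RING1B, and those at the edge of the rule. Genes named were the 5 largest rises and falls in Rybp-/-, shRybp and shWdr5, and the 3 largest in the others, at a mean of 5 CPM or more, up to 4 examples per list, and Rybp, Wdr5 and Stat3. Arl4c and Dazl were also given across comparisons after their values were seen. The upstream sequences of 2 of the strongest members are not reported here. Alternatives were stricter q values, 50% overlap, other RING1B lists, DESeq2 1.42.0, no low-count filter, a fold minimum, a replicate block and leaving out each library.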

Additional observations from a re-analysis of the deposited data

Results flagged for a closer look

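At 11 genes named in the comparisons of RYBP loss, the effect in shRybp cells (R1) and that in Rybp-/- cells (R7.15, with 4-OHT) were called in opposite directions. They are listed for those calls, and all 873 member genes with opposite calls passed edgeR's interaction test, so the differences below are given as a description. The 2 libraries of each group agreed in direction at all 11. Ptpn13, a tyrosine phosphatase, went from 33.1 and 34.9 to 14.9 and 15 CPM in the knockout and from 11.3 and 13.4 to 25.5 and 24.3 CPM in the knockdown, a difference of 2.17 on the log2 scale. Spry4, a feedback inhibitor of receptor tyrosine kinases, went from 53.1 and 54.2 to 91.3 and 105 CPM in the knockout and from 149 and 156 to 82.2 and 83.7 CPM in the knockdown, a difference of -1.78. Setd1b, a COMPASS methyltransferase, went from 21.6 and 22.4 to 31.8 and 32.5 CPM in the knockout and from 163 and 200.4 to 91.6 and 90 CPM in the knockdown, a difference of -1.57.

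The other genes that rose in the knockout and fell in the knockdown were the BMP ligand gene Bmp4, with a difference of -1.3 on the log2 scale, Etv4, an ETS factor downstream of FGF (-1.15), Myc (-1.09), Ccnd1, which encodes cyclin D1 (-1.07), Rpl19, a ribosomal protein (-0.37), and Jarid2, a PRC2 cofactor (-0.36). Those that fell in the knockout and rose in the knockdown were the Hedgehog receptor gene Ptch1, with a difference of 1.08, and Ezh1, a PRC2 methyltransferase (0.8). Line, means of depletion and 4-OHT cannot be told apart.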

How the results depend on the processing

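At −log10 q of 5 or more in all lists, 3407 peaks met the rule. Their shares were then 74.4% with WDR5 in Rybp+/+ and 78.3% in Rybp-/-, 99.8% with H3K4me3 and 95.4% with H3K27ac in Rybp-/-, 76.9%, 93.9% and 79.9% with RING1B in shStat3, DOX- and DOX+, 6.16%, 5.72%, 8.81% and 96.7% with STAT3 in Rybp+/+, Rybp-/-, DOX- and DOX+, and 17.2% in super-enhancers. With the DOX- RING1B list in place of shEV (9152 peaks), they were 80.7% and 83.5% with WDR5, 99.7% with H3K4me3, 97.9% with H3K27ac, 66.5% and 67.2% with RING1B in shStat3 and DOX+, 91.2% with STAT3 in DOX+ and 23.9% in super-enhancers. The share with RING1B in DOX- could not be given there, since that list then made the choice. Requiring overlap of 50% left 7303 peaks. At −log10 q of 2 or more, chosen after seeing the data, 6672 peaks met the rule and their shares moved by less than counting error, except that with STAT3 in DOX+ (94.1%). At −log10 q of 5 or more several differences between classes shrank. That from H3K27ac alone became 35.5 and 36.5 points for WDR5 in Rybp+/+ and Rybp-/-, 13.0 for H3K4me3 and 3.53 for H3K27ac in Rybp-/-, and 4.16, 3.97 and 6.22 for STAT3 in Rybp+/+, Rybp-/- and DOX-. That from RING1B alone became 1.81, 1.73 and 6.16 for STAT3 and 1.11 for H3K4me3, went from 1.49 to -1.37 for RING1B in DOX- and from -7.87 to -13.5 for RING1B in shStat3.

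Genes called with an absolute log2 fold change above 1 numbered 158 (Rybp-/-), 512 (shRybp), 906 (shWdr5), 599 (rTRS DOX), 33 (Tet.RYBP DOX), 220 (TF-AA) and 145 (RYBP phase disruption). Leaving out 1 library in turn, with the lone library assumed to vary like the others, gave 2961–3496, 3466–4056, 3970–4348, 2993–3225, 192–849, 1297–2350 and 1663–2074 calls in that order. DESeq2 called 1602 genes with TF-AA and 1536 in RYBP phase disruption, and without the filter on low counts the latter had 1648. The cause of these changes was not tested. The replicate block gave 3714, 4393, 4695, 4288, 634, 2790 and 2574 calls, each within 1.5 times the value without it, and 1 named gene lost its call in 1 comparison. Deviations of libraries with the same number correlated at -0.02 to 0.07, so the numbers were not taken as pairs. Of 331 named gene and comparison pairs, 41 lost their call in at least 1 alternative and 0 changed direction. Peak lists without replicates and 2 libraries per group limit the precision.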

Other observations

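Other gene groups at active RING1B peaks are given here beside all tested members of each list and the share of all genes called, which was 22.8% up and 22.7% down in Rybp-/-, 26.8% and 26% in shRybp, 31.5% and 31.5% in shWdr5, and 23% and 20.4% in rTRS DOX cells. Of 22 cytosolic ribosomal protein genes at active RING1B peaks, 17 fell and 1 rose in shRybp cells, and of all 79 in the list 58 fell and 4 rose. In shWdr5 cells 13 of the 22 fell and 7 rose, against 50 and 27 of the 79, and in rTRS DOX cells 2 fell and 9 rose, against 9 and 27. The median log2 fold changes of the 22 were -0.21, -0.24 and 0.13 in the 3 comparisons. Of 8 PRC2 genes, 5 fell and 1 rose in shRybp cells, against 6 and 3 of all 11, and 4 fell and 2 rose in rTRS DOX cells, against 6 and 3, with Jarid2 falling there from 544 and 567 to 266 and 278 CPM (log2 fold change -1.03). Of 5 genes for CDK inhibitors, 3 rose in each of Rybp-/-, shRybp and shWdr5 cells, and 2, 1 and 1 fell. Of all 7 in that list 4, 4 and 3 rose and 2, 1 and 2 fell. Of 25 feedback regulators and targets of signalling, 13 rose and 6 fell in Rybp-/- cells and 8 rose and 11 fell in rTRS DOX cells. Of all 31 in that list 15 rose and 9 fell, and 14 rose and 11 fell. Lists described above for members alone read as follows in full. Of all 30 pluripotency genes, 15 fell and 7 rose in shRybp, 19 and 5 in shWdr5, 24 and 2 in rTRS DOX and 13 and 7 in RYBP phase disruption cells. Of 24 germline genes tested in rTRS DOX cells 16 fell and 2 rose, and of 22 in RYBP phase disruption 1 fell and 19 rose. Of 25 replication genes 18 fell and 0 rose in Rybp-/- cells and 24 and 0 in shRybp cells. Of 27 PRC1 genes 13 fell and 7 rose in Rybp-/- and 14 and 11 in shRybp cells, and of 18 COMPASS genes 11 and 2 in shRybp cells. Of 18 genes of LIF and STAT3 signalling 11 fell and 3 rose in shWdr5 and 9 and 6 in rTRS DOX cells. Of 31 feedback regulators and targets 16 fell and 2 rose with TF-AA mutation, and of 31 developmental transcription factors and ligands 4 fell and 13 rose in RYBP phase disruption. These counts are descriptions of lists drawn up with earlier results known.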
